A study of Caenorhabditis elegans with 14 samples.

Results

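The measurement described here is the effect of losing daf-19 in first-stage larvae (L1) of Caenorhabditis elegans, read on 8 of the 14 arrays of the series. The 8 arrays were all those labelled L1: 4 from double mutants in daf-19 and daf-12 by their listed genotype, and 4 from controls listed as daf-12 alone. Every animal therefore carried a daf-12 mutation, and the controls were not wild type in that respect, although the labels also call them wild type for DAF-19. The 6 arrays of adults, 3 of each genotype, are used only to set the larval effect beside the adult one. Their titles say young adult, while the growth protocol says 50 hours past the L4 stage. The labels name no daf-19 or daf-12 allele and no strain. RNA came from whole worms grown from staged embryos, so a lower signal cannot tell fewer cells of a type from less RNA per cell.

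DAF-19 is the only RFX-type transcription factor of C. elegans, and it binds promoter motifs called X-boxes at genes whose products build sensory cilia. Cilia stand at the dendrite endings of sensory neurons. Intraflagellar transport (IFT) builds them: kinesin motors carry IFT-A and IFT-B particles out to the tip, cytoplasmic dynein 2 carries them back, the BBSome works as a cargo adaptor on these particles, and the transition zone gates the base. Animals without DAF-19 lack cilia and form dauer larvae, a resting larval form, under conditions in which others do not. DAF-12 is a nuclear hormone receptor that acts late in the decision to form a dauer. The title of the series asks about functions of daf-19 in ciliated and non-ciliated neurons.

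The array holds 22625 probe sets, of which 77 are controls and 22548 were tested. The values are log2 signals, so that a difference of 1 is a doubling. Medians of the 8 arrays lay between 4.72 and 4.76. One measure moved with genotype: the 3′ minus 5′ signal of the Gapdh control probe sets, which grows as the labelled RNA becomes shorter, lay between 3.83 and 4.12 (log2) on the mutant arrays and between 3.16 and 3.83 on the control arrays. The same measure for actin lay between 2.83 and 3.06 on mutant and between 2.44 and 2.88 on control arrays. Fits with this Gapdh measure as a covariate, an alternative chosen after seeing the data, are given for counts and for many of the named genes. Pan-neuronal genes such as unc-119 had a median between the 92.2 and 96 percentile of all genes on the 8 arrays. On the adult arrays it lay between the 68.1 and 69.9 percentile. Yolk genes, which adults express, lay at the 31.4 to 44.3 percentile at L1 and at the 100th in adults, and germline genes at the 48.1 to 55.1 and the 93.9 to 95.7 percentile.

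The targeted gene was read first. On the dimmer of its probe sets, daf-19 read 6.08, 6.02, 6.08 and 5.77 on the mutant arrays and 6.77, 6.89, 6.64 and 6.42 on the control arrays. The groups did not overlap, and the difference was -0.69 (SE 0.12, n = 4 and 4, adjusted p = 0.0472 by limma). The call ended without any single array except control 4 (adjusted p from 0.0633 to 0.138) and with the Gapdh covariate (0.46). The brighter probe set read 8.81, 9.0, 9.07 and 8.64 in mutants and 9.61, 9.82, 9.68 and 9.20 in controls, again without overlap. Its difference of -0.70 (SE 0.15) did not pass in limma with adjusted p = 0.105, and passed with the replicate number as a block (0.0144). Some daf-19 signal therefore remained on the mutant arrays. Where the probes lie relative to the mutation is not given, so these values check the labels and not the loss of protein. The 3 probe sets of daf-12 differed by 0.40, 0.05 and 0.12 (adjusted p = 0.257, 0.988 and 0.865 by limma). Of 32 measured genes within 20 protein-coding genes on either side of daf-19, 0 passed, with or without the block. Among all genes 0.351% were lower and 0.134% higher (0.66% and 0.351% with the block). A count of 0 in 32 is near those shares and says little about the region.

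Few transcripts of the whole larva passed as different between daf-19 mutants and controls, and more of them were lower than higher. At an adjusted p under 0.05, 68 probe sets were lower in mutants (0.302% of those tested) and 30 were higher (0.133%), together 0.435%. With 1 probe set per gene, 60 of 17118 genes were lower (0.351%) and 23 higher (0.134%). Of these, 30 were lower by more than 1 on the log2 scale and 15 higher by more than 1. At the other end, 97% of all genes lay within 0.5 of no change, and the median standard error was 0.11. At an unadjusted p under 0.05 by limma, which many unchanged probe sets also pass by chance, the counts were 1021 lower and 707 higher probe sets. Same-numbered mutant and control arrays deviated together, and with the number as a block the counts were 113 lower (0.66%) and 60 higher genes (0.351%), which included 55 of the 60 and 23 of the 23. Without control 4 the probe set counts were 42 and 16, without mutant 1 they were 74 and 48, and without control 2 they were 46 and 19. In all 8 fits that left out 1 array, 31 lower and 9 higher genes held. With the Gapdh measure as a covariate, 29 probe sets were lower and 6 higher.

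**Figure D1:**
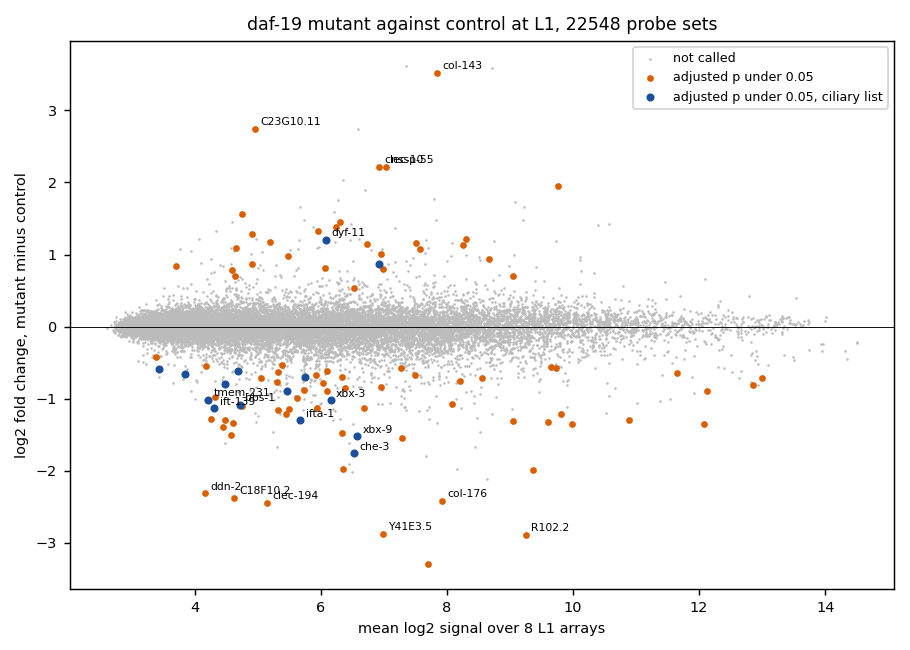
Difference between mutant and control (log2, vertical axis) against mean log2 signal over the 8 L1 arrays (horizontal axis) for 22548 probe sets. Grey points did not pass, coloured points passed at an adjusted p under 0.05, ciliary genes have their own colour, che-3 is the lowest of the ciliary points at -1.76, R102.2 lies at -2.89, and col-143 is the highest coloured point at 3.52.

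Part of the ciliary genes fell. Of 77 genes placed in 6 ciliary lists, 70 were measured, 13 of which were lower at an adjusted p under 0.05 (18.6%, against 0.351% of all genes) and 2 of which were higher. The lists hold genes that other work had tied to DAF-19 and cilia, and were drawn up with earlier results of these data known. Their median difference was -0.20 against 0.005 for all genes, 51 of 70 were below 0, and the medians of the 4 mutant-control pairs were -0.24, -0.23, -0.13 and -0.26. Mutant arrays all lay below all control arrays for 25 of the 70, which held for 2.66% of all genes, and all above for 6, which held for 1.9% of all genes (4.57% either way). With the replicate number as a block, 19 were lower and 2 higher. Without mutant 4 the lower count was 8. With the Gapdh covariate 5 were lower, namely che-3, xbx-9, ifta-1, ift-139 and bbs-8, the other 8 had adjusted p from 0.0679 to 0.261, and 0 were higher.

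**Figure D2:**
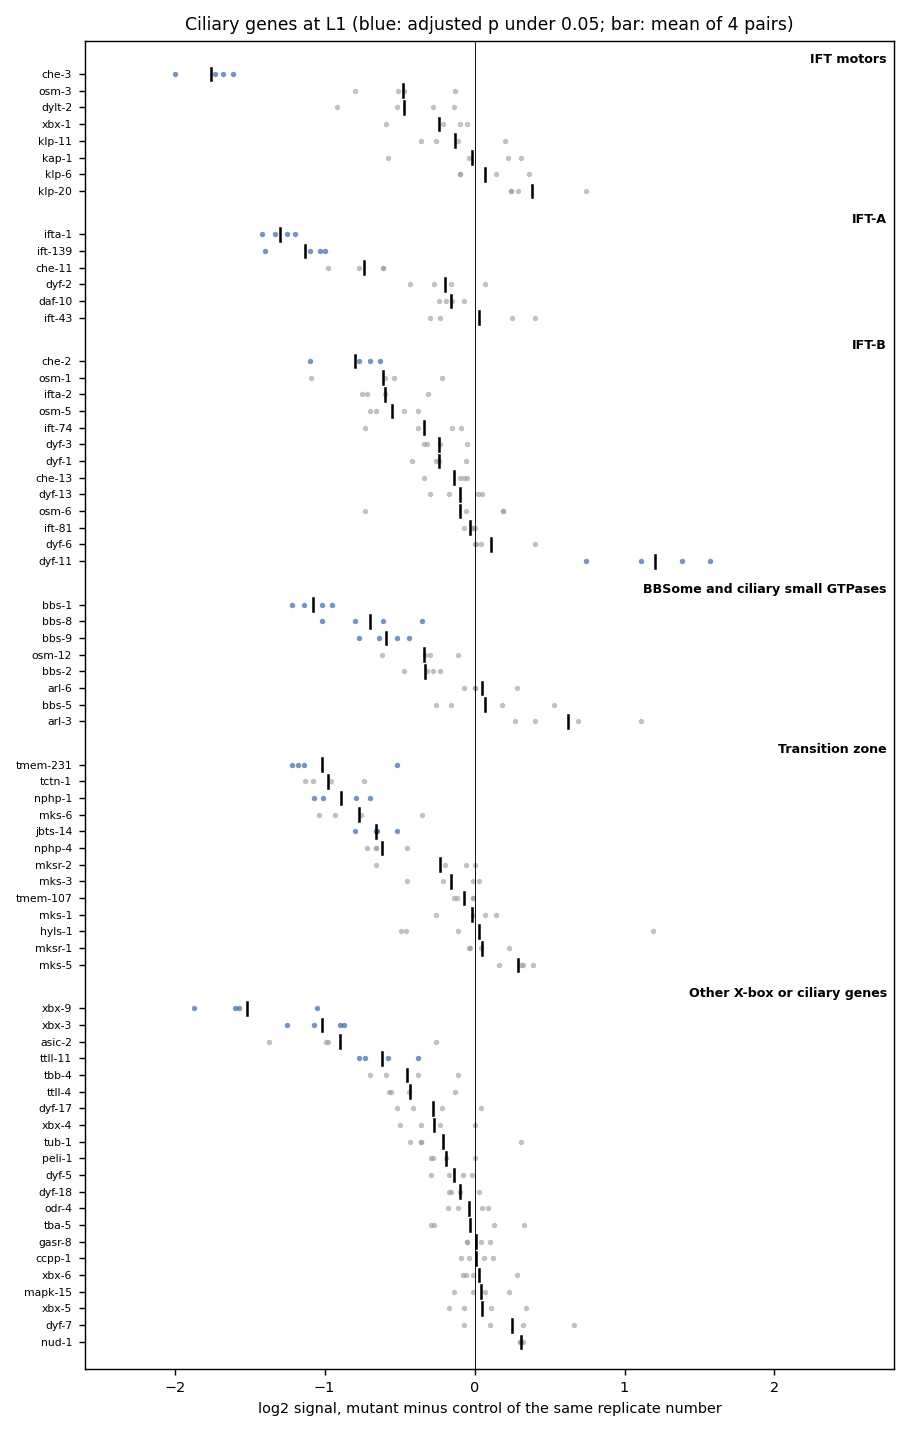
Difference between the mutant and the control array of the same replicate number (log2, horizontal axis) for ciliary genes, grouped by complex. Each gene has 4 points and a bar at their mean, blue points mark an adjusted p under 0.05, and most bars lie left of 0, with che-3 at -1.76 farthest left and dyf-11 at 1.20 farthest right.

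Of 8 IFT motor genes, 1 was lower, with a list median of -0.19. The gene che-3 encodes the heavy chain of cytoplasmic dynein 2, the motor of return transport. It read 7.43, 7.39, 7.42 and 7.41 on the control arrays and 5.70, 5.78, 5.74 and 5.41 on the mutant arrays. The control values were nearly identical, and every mutant array lay more than 1 below them. The difference of -1.76 (SE 0.09, adjusted p = 4.02e-05 by limma) is a 3.38-fold fall, and the gene passed without any single array and with the Gapdh covariate (0.00136). Of the other 7 motor genes, 0 passed. The kinesin gene osm-3, whose product drives transport in the outer part of the cilium, differed by -0.48 (adjusted p = 0.206 by limma, and 0.0437 in the fit over all 14 arrays), with mutant arrays at 5.60, 5.71, 5.59 and 6.06 and control arrays at 6.40, 6.22, 6.06 and 6.19. The dynein light intermediate chain gene xbx-1 differed by -0.24 (0.632), the light chain gene dylt-2 by -0.47 (0.276), and the kinesin-II genes klp-11, klp-20 and kap-1 by -0.13, 0.38 and -0.02 (0.926, 0.294 and 0.997).

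IFT-A, the particle that works with dynein in return transport, had 2 of 6 measured genes lower and a list median of -0.47. The first, ifta-1, encodes the homolog of mammalian IFT121 and read 4.95, 5.20, 5.16 and 4.81 in mutants against 6.20, 6.40, 6.58 and 6.14 in controls. Its groups stood about 1 apart at their nearest arrays, and the difference was -1.30 (SE 0.13, adjusted p = 0.00186 by limma). The second, ift-139, read 3.71, 3.65, 3.79 and 3.84 in mutants and 4.71, 4.75, 4.82 and 5.24 in controls, a difference of -1.13 (SE 0.12, 0.00317). Its mutant values lie near the lower quartile of signals (3.71 to 3.75 on mutant arrays), which limits what can be said of size. A dimmer probe set of ift-139, in the lowest 25% of signals in both groups, differed by 0.12 (0.922). The IFT140 homolog che-11 differed by -0.74, which did not pass (0.18), and passed with the block (0.0148) and in the fit over all 14 arrays (0.0437). The remaining members daf-10, dyf-2 and ift-43 differed by -0.16, -0.20 and 0.03 and did not pass.

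IFT-B, the particle of outward transport, had 1 of 13 measured genes lower and 1 higher, with a median of -0.24. The lower one, che-2, encodes the IFT80 homolog and read 3.94, 4.23, 4.15 and 4.03 in mutants against 4.71, 4.93, 4.78 and 5.13 in controls. It fell by 0.80 on the log2 scale (SE 0.11, adjusted p = 0.0141 by limma), and the call ended without mutant 4 or control 2 (0.0564 and 0.0628 at the ends of that range). The higher one was dyf-11, the homolog of mammalian IFT54. It read 6.27, 6.58, 6.90 and 7.01 in mutants and 5.53, 5.47, 5.52 and 5.44 in controls, so the 4 controls lay close together and the mutants spread above them. The rise was 1.20 (SE 0.15, 0.007), it held without any single array, and it ended with the Gapdh covariate (0.0828). With the replicate block the IFT88 homolog osm-5 (-0.55; 0.0708, block 0.0395) and ifta-2 (-0.60; 0.111, block 0.0414) were also lower. A second probe set of osm-5 differed by -0.68 (0.048), a call that ended without any single array (0.0649 to 0.162). The IFT52 homolog osm-6 differed by -0.10 (0.979).

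The BBSome and ciliary GTPase list had 3 of 9 measured genes lower, with a median of -0.33. The BBSome core gene bbs-1 read 3.95, 4.33, 4.36 and 4.06 in mutants and 5.17, 5.35, 5.50 and 5.01 in controls. The difference was -1.08 (SE 0.13, adjusted p = 0.007 by limma), and it held without any single array and ended with the Gapdh covariate (0.137). The other lower genes encode BBSome subunits too: bbs-8 differed by -0.70 (SE 0.12, 0.048) and bbs-9 by -0.59 (SE 0.09, 0.0186). Their calls were less stable, since that of bbs-8 ended without any array but control 2 (0.0796 to 0.168), and that of bbs-9 without mutant 2, 3 or 4 or control 2 or 4 (0.0549 to 0.0793). The bbs-9 probe set lay in the lowest 25% of signals in mutants, with controls near the same level, so no fold is given and the value of -0.59 is not a measured size. Quantile normalization of the L1 arrays ended the bbs-8 call (0.0615). The BBSome genes bbs-2, osm-12 and bbs-5 differed by -0.33, -0.34 and 0.07 and did not pass.

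The transition zone list had 3 of 13 measured genes lower and 0 higher, with a median of -0.23. The membrane protein gene tmem-231 read 3.53, 3.75, 4.03 and 3.54 in mutants and 4.67, 4.93, 4.55 and 4.76 in controls, a difference of -1.02 (SE 0.13, adjusted p = 0.00883 by limma). Most of its mutant values lie at or below the lower quartile of signals (3.71 to 3.75 on mutant arrays), so the size is uncertain. The gene nphp-1, homolog of a human nephronophthisis gene, read 4.82, 5.14, 5.19 and 4.96 against 5.89, 6.15, 5.98 and 5.66, a difference of -0.89 (SE 0.12, 0.0141). Neither pair of groups overlapped, and the nphp-1 call ended without mutant 4 or control 3 (0.0564 and 0.0643 at the ends of that range). The third, jbts-14, is the homolog of mammalian TMEM237 and lay in the lowest 25% of signals in mutants. It was at least 1.36-fold lower (adjusted p = 0.00658), while its other probe set differed by -0.12 (0.834). Genes for tectonic (tctn-1, -0.98), the CC2D2A homolog (mks-6, -0.77) and nphp-4 (-0.62) did not pass in the L1 fit (0.0664, 0.123 and 0.061), and passed with the block (0.00528, 0.0351 and 0.0199) and in the fit over all 14 arrays (0.00682, 0.0178 and 0.0176). That makes 6 of 13 with the block. Without mutant 1, 5 were lower, tctn-1 and nphp-4 among them. The genes mks-1, mks-3, mksr-1 and mksr-2 differed by -0.02, -0.16, 0.05 and -0.23 and did not pass.

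Of 21 further genes listed for an X-box or a ciliary product, 3 were lower and 0 higher, with a median of -0.14. The gene xbx-9, named for the X-box of its promoter, read 5.71, 6.02, 5.75 and 5.77 in mutants and 7.58, 7.07, 7.32 and 7.37 in controls. Its difference of -1.52 (SE 0.12, adjusted p = 0.000403 by limma) held without any single array and with the Gapdh covariate (0.00136). The gene xbx-3 read 5.71, 5.89, 5.39 and 5.60 against 6.61, 6.76, 6.46 and 6.85, a difference of -1.02 (SE 0.13, 0.00699). These groups stood apart as well, and the xbx-3 call ended with the covariate (0.0869). The third, ttll-11, encodes a tubulin polyglutamylase that modifies axonemal microtubules, and differed by -0.62 (SE 0.11, 0.0499), a call that ended without any array but control 2 (0.0876 to 0.159). The channel gene asic-2 differed by -0.90 (0.129, and 0.0171 in the fit over all 14 arrays), the tubulin genes tbb-4 and tba-5 by -0.45 and -0.03 (0.145 and 0.995), and the ciliary kinase gene dyf-5 by -0.14 (0.775).

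Outside the ciliary lists, the largest falls included genes with no role assigned here. The steepest was R102.2, which read 7.91, 7.96, 7.47 and 7.87 in mutants and 10.70, 10.51, 10.61 and 10.95 in controls. This bright transcript fell by 2.89 on the log2 scale (SE 0.13, adjusted p = 2.03e-05 by limma). Y41E3.5 read 5.46, 6.05, 5.03 and 5.67 in mutants against 8.46, 8.19, 8.33 and 8.73 in controls and differed by -2.88 (SE 0.20, 0.000208), on a probe set that can match more than 1 transcript. The gene clec-194, for a protein with a C-type lectin domain, read 3.73, 4.04, 4.01 and 3.90 against 6.54, 6.22, 5.98 and 6.73, a difference of -2.45 (SE 0.16, 0.000141). In each of these genes the mutant arrays lay more than 1 below the lowest control array. The mutant values of clec-194 lie near the lower quartile of signals (3.71 to 3.75 on mutant arrays), which limits what can be said of its size.

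A group of falls brought mutants down to the dimmest signals of the array. C18F10.2 read 3.44, 3.35, 3.47 and 3.52 in mutants and 5.81, 5.92, 5.57 and 5.97 in controls, and was at least 4.24-fold lower (adjusted p = 1.8e-05 by limma). The gene ddn-2, whose name stands for downstream of DAF-19, read 3.18, 3.00, 2.90 and 2.95 against 4.81, 5.33, 5.38 and 5.77 and was at least 3.01-fold lower (0.000345). For both, the mutant arrays lay in the lowest 25% of all signals, and the fold is a lower bound. The gene cwp-4, named for its expression together with the polycystins of male sensory neurons, remained measurable in mutants at 5.18, 5.34, 5.48 and 5.45 against 7.24, 7.30, 7.53 and 7.27, a difference of -1.97 (SE 0.10, 3.19e-05). M04D8.7, which neighbours xbx-3 in the RefSeq gene order, read 3.72, 4.14, 3.63 and 3.80 against 5.30, 5.18, 5.12 and 5.69 and differed by -1.50 (SE 0.15, 0.00219). Most of its mutant values lie near the lower quartile of signals (3.71 to 3.75 on mutant arrays), so the size is uncertain. Among the 82 genes that passed and could be placed in the RefSeq order, M04D8.7 and xbx-3 were the only adjacent pair. The detoxification gene ugt-13, for a UDP-glucuronosyltransferase, read 8.70, 8.31, 8.02 and 8.43 against 10.41, 10.68, 9.75 and 10.59, a difference of -1.99 (SE 0.21, 0.00317) whose call ended with the Gapdh covariate (0.0659). One probe set with no gene in the annotation, 185275_at, differed by more than any named gene that fell, with 9.35 ± 0.17 (SD, n = 4) in controls and 6.07 ± 0.48 in mutants (-3.29, adjusted p = 0.000141 by limma).

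The rises that held without any single array numbered 9, and col-143 led them. This cuticle collagen gene read 9.98, 9.95, 9.44 and 9.08 in mutants and 6.28, 6.04, 6.37 and 5.67 in controls, a rise of 3.52 (SE 0.22, adjusted p = 0.000141 by limma). The lowest mutant array lay more than 2 above the highest control array. The gene nssp-55 read 7.95, 8.58, 7.97 and 8.05 against 6.34, 5.38, 6.15 and 5.82, a rise of 2.21 (SE 0.21, 0.00186), and nssp-63 read 8.51, 9.16, 8.94 and 9.05 against 7.81, 7.70, 7.62 and 7.65, a rise of 1.22 (SE 0.13, 0.00374). Among bright genes, the acid phosphatase gene pho-11 read 10.10, 10.84, 10.68 and 11.33 against 8.61, 8.81, 9.04 and 8.68, a rise of 1.95 (SE 0.22, 0.00497). Besides dyf-11, the remaining rises were tag-123 (1.17, 0.00317), Y105C5A.15 (1.13, 0.00186), the glutathione transferase gene gst-20 (1.07, 0.0122) and F19H6.6 (0.53, 0.00862). The second probe set of tag-123 also rose (1.00, 0.00585), while those of Y105C5A.15 differed by 0.21 and 0.47 and did not pass (0.719 and 0.151). With the Gapdh covariate the calls of nssp-63 (0.0679), pho-11 (0.0679), gst-20 (0.113) and F19H6.6 (0.154) ended. A pair of further rises is outside the naming rule and were chosen after their values were seen: C23G10.11 (2.74, 0.0101), which ended without control 4 (0.0504), and clec-10 (2.21, 0.0305), which ended for 7 of the 8 arrays.

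**Figure D3:**
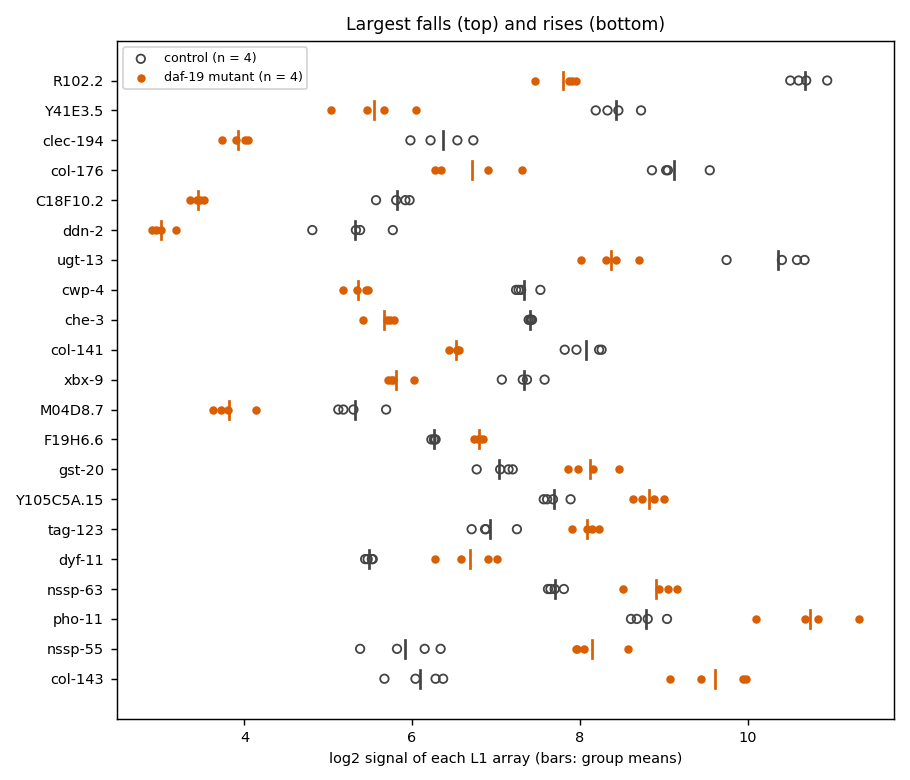
Log2 signal of each L1 array (horizontal axis) for the 12 largest falls and 9 rises that passed without any single array. Open circles are the 4 control arrays, filled circles the 4 mutant arrays and bars the group means. In each of the 21 genes the groups do not overlap, which the choice of genes by these values largely fixes. The groups did not overlap for 4.57% of all genes.

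Further probe sets of the called genes gave a check within the array. Of the 60 lower genes, 10 had further probe sets, 12 in all, of which 10 had the same sign, 2 also passed and 0 passed in the opposite direction. Of the 23 higher genes, 6 had 10 further probe sets, of which 8 had the same sign, 4 also passed and 0 passed in the opposite direction. Those that passed belong to catp-3 (-1.33, adjusted p = 0.007 by limma) and clip-1 (-1.48, 0.000345) among the falls, and to clec-10, ilys-5 with 2 probe sets, and tag-123 among the rises. The eel-1 rise was not seen by its other probe sets, which differed by -0.04, 0.22 and 0.12.

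Most cuticle collagens lay lower in mutants, and a few rose. The col genes encode the collagens that the epidermis secretes into the cuticle anew for each stage. Of 128 measured, 111 were below 0 and the median was -0.27, against 48.5% below 0 and a median of 0.005 for all genes. At an adjusted p under 0.05, 10 were lower and 3 higher, where 0.351% and 0.134% of all genes were. With the replicate block 19 were lower and 5 higher, where 0.66% and 0.351% of all genes were. It was the only one of 165 families of at least 10 genes with 3 or more genes past the threshold, and 150 families had 0. A large family reaches 3 more easily than a small one. A lean below 0 was also seen in pals (19 of 23 genes, median -0.39, 0 called) and gst (29 of 40, -0.18, 1 higher). Other families leaned above 0, such as srd (17 of 57 below 0, median 0.07) and gcy (9 of 32, 0.08). The counts depended on single arrays: 15 were lower without mutant 1, 7 without control 1, 4 without mutant 3, control 2 or control 4, 5 without mutant 2 or 4, and 6 without control 3, while 1 was higher without control 2.

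The collagens differed widely in size and direction of change. The gene col-176 read 6.27, 6.91, 7.31 and 6.35 in mutants and 9.03, 9.55, 9.05 and 8.86 in controls, a difference of -2.41 (SE 0.24, adjusted p = 0.00198 by limma). The gene col-141 read 6.54, 6.44, 6.53 and 6.56 against 7.96, 8.26, 7.82 and 8.23, a difference of -1.55 (SE 0.11, 0.000208). Both pairs of groups stood more than 1 apart. Next came col-159 (-1.35, 0.00317) and col-101 (-1.13, 0.006), and the other 6 that fell lay between -0.89 and -0.54 (col-133 and col-150). The rises were col-143, described above, col-122 (1.33, 0.0134) and col-181 (0.98, 0.0237). Bright collagens were among those that fell, such as col-146 (mean signal 12.99, -0.72) and col-159 (12.07), while the brightest, col-93 (14.5), differed by -0.23 and did not pass. Many col probe sets match related genes, so their signals are not fully independent.

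Values that moved with the collagens stand beside them. Of 19 epidermal markers, 18 were below 0 with a median of -0.20, and 0 passed, with dpy-3 lower with the block (-0.57; adjusted p = 0.282, block 0.0304 by limma). The summed linear signal of the epidermal markers was 10274 to 12225 on mutant arrays and 12647 to 14368 on control arrays. The list itself holds collagen genes such as dpy-7 and rol-6. With the Gapdh covariate, col-176 (0.0378), col-141 (0.00673), col-101 (0.0389) and col-143 (0.00444) still passed, and the other 9 did not (0.0506 to 0.345). Of 18 moulting genes, which peak with each new cuticle, 0 passed and the median was 0.05. Since 0.351% of all genes were lower and 0.134% higher, 0 calls in lists of 19 and 18 is near the share over all genes. The part of epidermal content in the collagen values was not tested.

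**Figure D4:**
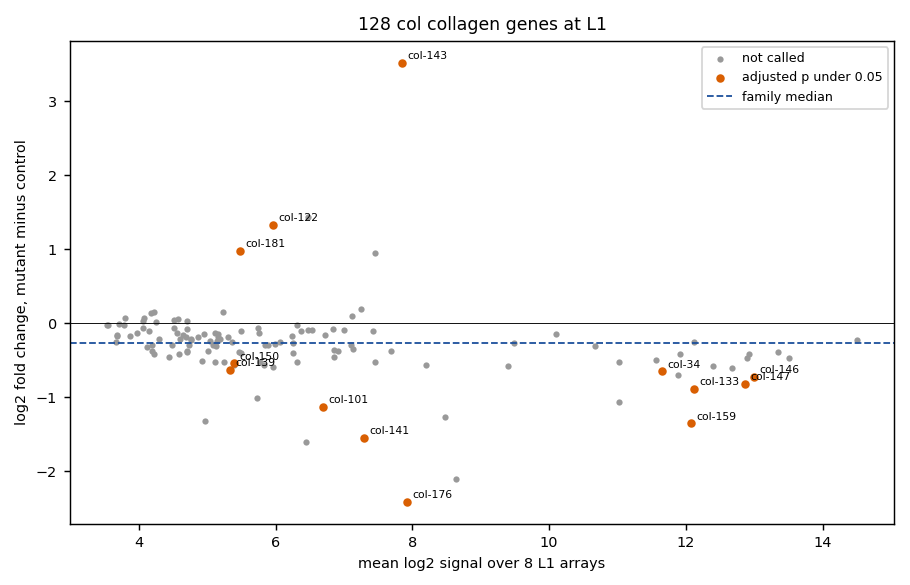
Difference between mutant and control (log2, vertical axis) against mean log2 signal over the 8 L1 arrays (horizontal axis) for 128 col genes. Coloured points passed at an adjusted p under 0.05 and are named, the dashed line is the family median of -0.27, and col-143 at 3.52 lies opposite to col-176 at -2.41.

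Lists of neuronal genes other than those that build the cilium held 0 called genes. Only 0.351% of all genes were lower and 0.134% higher, so 0 calls in lists of this size is near the share over all genes. Among 29 sensory transduction genes, which encode the channels, receptors and cyclases that work within cilia, 0 passed and the median was 0.02. The 2 with the smallest p were odr-10, the diacetyl receptor gene (-0.56, SE 0.23, adjusted p = 0.592 by limma), and the guanylyl cyclase gene odr-1 (0.17, SE 0.09, 0.77). The cyclic nucleotide-gated channel gene tax-4 differed by 0.17 (0.83) on the brighter probe set, which stands for it in the list. Its dimmer probe set did pass: it read 3.94, 4.28, 4.28 and 4.02 in mutants and 3.27, 3.39, 3.21 and 3.28 in controls, which lay in the lowest 25% of signals. On that probe set tax-4 was at least 1.32-fold higher (adjusted p = 0.00592 by limma), which held without any single array and ended with the Gapdh covariate (0.0679). Among 15 regulators of sensory neuron identity 0 passed, with a median of -0.05 and the smallest p for lin-11 (0.25, 0.661) and unc-86 (0.19, 0.686). In both lists, the arrays of the groups stood apart for 0 genes on the brightest probe set of each. They stood apart for 4.57% of all genes, a share at which few would do so in lists of 29 and 15.

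Genes of the synapse bear on non-ciliated neurons too. Of 29 synaptic vesicle and active zone genes, 0 passed, the median was -0.02, and values ran from -0.30 (sng-1, adjusted p = 0.735 by limma) to 0.59 (dyn-1, 0.134). The dynamin gene dyn-1 was higher with the block (0.029) and in the fit over all 14 arrays (0.0192), and its second probe set differed by 0.09 (0.96). Of 18 genes for transmitter synthesis and transport, 0 passed, with a median of 0.03 and the smallest p for the dopamine transporter gene dat-1 (-0.40, 0.505) and the vesicular glutamate transporter gene eat-4 (-0.37, 0.635). Of 13 pan-neuronal genes 0 passed, and all lay between -0.13 (unc-64) and 0.09 (unc-33). Their summed linear signal was 12599 to 14835 on mutant arrays and 13129 to 14155 on control arrays, so the groups overlapped. Glial markers gave 0 of 12, with vap-1 higher with the block (0.93; 0.404, block 0.0392).

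Dauer and insulin signalling genes, listed because loss of daf-19 leads to dauer formation, held 1 call among 26, with a median of -0.02. That is 3.85% lower, against 0.351% of all genes. All animals here also carried a mutation in daf-12, which acts late in the dauer decision, so the list was not read in animals with daf-19 loss alone. The insulin-like peptide gene ins-22 read 3.87, 3.93, 3.90 and 3.94 in mutants and 4.63, 4.46, 4.28 and 4.47 in controls. Its groups did not overlap, the difference was -0.55 (SE 0.09, adjusted p = 0.0305 by limma), and the call ended without any array but control 3 (0.0642 to 0.114) and with the Gapdh covariate (0.321). The gene daf-5, for a partner of the SMAD protein DAF-3 in the dauer TGF-beta pathway, was higher with the block (0.62; 0.13, block 0.0223). The cytochrome gene daf-9, the insulin receptor gene daf-2 and the others did not pass.

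Markers of other tissues bear on the makeup of the larvae. Of 19 muscle, 11 pharynx, 20 germline, 16 sperm, 5 yolk, 12 early embryo and 22 cell cycle genes, 0 passed in any list, and the medians lay between -0.10 for pharynx and 0.14 for the cell cycle. Lists of these sizes would often hold 0 calls, since 0.351% of all genes were lower and 0.134% higher. The cdc-25.1 phosphatase gene had the smallest p of the cell cycle list (0.36, adjusted p = 0.13 by limma). In the intestine list, 1 of 15 passed: the cathepsin B-like protease gene cpr-6 read 7.08, 7.53, 7.10 and 7.55 in mutants against 6.45, 6.01, 5.94 and 6.27 in controls, a rise of 1.15 (SE 0.15, 0.0115) that ended without control 2 (0.0506) and with the Gapdh covariate (0.203). In the stress and detoxification list, ugt-13 was the only 1 of 24 to pass, and the cytochrome P450 gene cyp-35B1 was lower with the block (-1.67; 0.212, block 0.00589) and in the fit over all 14 arrays (0.0432). In the large families of nuclear receptors (nhr, 254 genes) and C-type lectins (clec, 220 genes), 0 and 2 genes passed.

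The larval effect was then set beside that in adults, in a fit over all 14 arrays with a test of the difference between the 2 effects (the interaction, adult minus L1). The genes were chosen by their L1 values, which also enter the interaction, so the counts describe and are not independent evidence that the effect is smaller in adults. Of the 60 genes lower at L1, the interaction passed for 36 (60%, against 0.987% of all genes), and their median adult difference was -0.08. In adults, 4 of the 60 were also lower and 1 was higher, while 180 genes, or 1.05%, passed in either direction. Of the 23 genes higher at L1, the interaction passed for 13 (56.5%), the median adult difference was 0.03 and 3 were also higher. All 49 genes whose interaction passed had an adult effect nearer to 0 than at L1 or of the opposite sign.

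The ciliary genes were also taken on their own. Of the 13 that were lower at L1, 0 passed in adults, which is near the 1.05% of all genes that did. Their median adult difference was -0.07. The interaction passed for 9 (69.2%, against 0.987% of all genes), in genes likewise chosen by their L1 values. Pan-neuronal and glial genes ranked lower in adults (68.1 to 69.9 and 25.2 to 34.3 percentile) than at L1 (92.2 to 96 and 71.2 to 80.2). The part of this lower rank in the adult values of the ciliary genes was not tested. For che-3 the adult effect was -0.08 (SE 0.10, adjusted p = 0.999 by limma) and the interaction was 1.67 (1.26e-05). The interaction was 1.31 for ifta-1 (0.00165), 1.18 for bbs-1 (0.00452) and 1.03 for ift-139 (0.00493). It did not pass for tmem-231 (0.72, 0.0966), nphp-1 (0.77, 0.0744), bbs-8 (0.66, 0.106) or bbs-9 (0.49, 0.12), the last of which rests on dim signals. For the rise of dyf-11 the interaction did not pass either (-0.55, 0.396), and its adult effect was 0.65 (SE 0.16, 0.0784).

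A small set of genes passed at both stages. Y41E3.5 (-2.09 in adults, adjusted p = 0.0052 by limma), clip-1 (-1.0, 0.0194) and gakh-1 (-0.60, 0.00634) were lower in both, and gst-20 (1.59, 0.000217), tag-123 (0.79, 0.0285) and F44G4.7 (0.90, 0.00209) were higher in both. For these 6 the interaction did not pass (0.527 to 0.992). The L1 calls of F44G4.7 and gakh-1 ended for 6 and 5 of the 8 arrays left out (0.0517 to 0.0742 and 0.0538 to 0.0728). R102.2 was also lower in adults (-1.34, 0.0139), by less than at L1 (interaction 1.55, 0.0364). The serpin gene srp-3 was lower at L1 (-0.67) and higher in adults (0.76, 0.012), with an interaction of 1.42 (0.000984). Its L1 call ended without any array but mutant 1 (0.0725 to 0.129). Among the genes named here, the largest interaction belonged to col-143 (-4.06, 2.94e-06), whose adult difference was -0.54 (SE 0.21, 0.468).

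**Figure D5:**
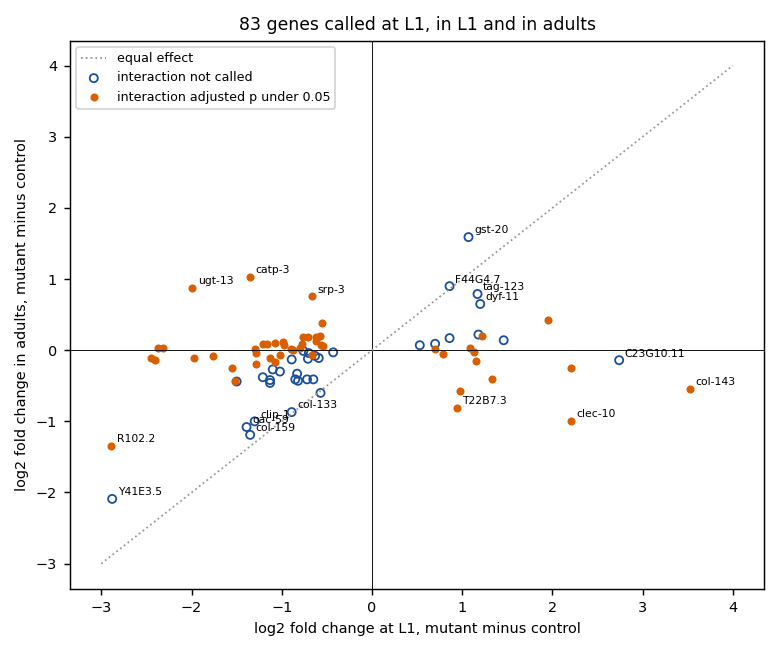
Adult difference (log2, mutant minus control, 3 arrays a group, vertical axis) against L1 difference (4 arrays a group, horizontal axis) for the 83 genes that passed at L1. Filled points have an interaction at an adjusted p under 0.05, the dotted line marks equal effects, and most points lie near 0 on the adult axis, with Y41E3.5 at -2.09 and gst-20 at 1.59 far from it.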

How the data were processed

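Whole-worm RNA was isolated with Trizol and column purification, and 6 ug of it were labelled for each Affymetrix array, per the labels' protocols. The authors deposited log2 signals per probe set. The unit was read from the values; how the authors corrected background, summarised probes and normalized is not given in the sources used here. Within a stage the deposited quantiles matched, and across stages they did not. All sample columns were used (0 left out). The 77 control probe sets were left out. The platform's annotation table gave gene symbols: of 22548 probe sets, 20766 had 1 gene, 887 several and 895 were not listed. RefSeq gene names (assembly WBcel235) matched 20701 and changed 0 symbols. Each of 17118 genes was represented by the single-gene probe set with the highest mean over the 8 L1 arrays. IDs ending in _x_at (1227) or _s_at (5484) can match several transcripts.

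Mutant and control were compared in the 8 L1 arrays using limma 3.58.1 (R 4.3.3; functions lmFit and eBayes, with 6 residual and 3.59 prior degrees of freedom), two-sided, with Benjamini-Hochberg adjustment over all 22548 probe sets and a threshold of 0.05. SE is the standard error from this fit. Precision is limited by having 4 arrays in a group. The adult effects and interactions come from a fit over all 14 arrays. The fits were tested on simulated data. Where all arrays of a group lay in their lowest 25% of signals, the fold is given as a bound against that quartile, or not given where the bound is no change. The labels call replicates biological and do not say which were grown together, so p-values measure the spread between these samples. Deviations of same-numbered mutant and control arrays from their group means correlated (r = 0.42, 0.32, 0.19 and 0.24, each above 0.1). Differently numbered arrays gave r from -0.33 to 0.18, and the highest, mutant 3 with control 2, nearly equals that of pair 3. The numbers were taken as pairs from the data, and the blocked value is given where it changes a call. The members and lists were chosen with earlier results of these data known. Named were the 12 largest rises and falls among genes that passed in the fit and in all 8 fits without 1 array (9 rises met this), up to 6 such members of each list, ciliary members, the 2 with the smallest p of other lists without a call, daf-19 and daf-12, and the 3 with the smallest p of families of at least 10 genes with 3 or more calls. One gene of the ciliary lists is counted in the totals and its values are not reported here.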

Additional observations from a re-analysis of the deposited data

Results flagged for a closer look

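One array stood apart within its group among the 64 groups of named genes examined: for nssp-55, mutant replicate 2 had a gap to its nearest neighbour of 0.841 of the group's range. Chance gives about 1 such flag in 20 groups.

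The effect of genotype differed between adults and L1, by the interaction in limma over 14 arrays, for 20 of 32 named genes tested. These genes were chosen by their L1 values. In genes that fell at L1, adult minus L1 was 2.88 for ugt-13, 2.4 for C18F10.2, 2.34 for ddn-2 and clec-194, 2.28 for col-176, 1.86 for cwp-4, 1.67 for che-3, 1.55 for R102.2, 1.31 for ifta-1 and 1.3 for col-141. It was 1.18 for bbs-1, 1.1 for xbx-9, 1.03 for ift-139, 0.95 for xbx-3 and 0.59 for jbts-14. Those of C18F10.2, ddn-2 and jbts-14 rest on L1 mutant signals in the lowest 25% and are not measured sizes. Those of ift-139 and clec-194 rest on L1 mutant signals near that level. In genes that rose at L1 it was -4.06 for col-143, -2.46 for nssp-55, -1.53 for pho-11, -1.15 for Y105C5A.15 and -1.02 for nssp-63.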

How the results depend on the processing

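The signs of all 34 named genes that passed held under every alternative run. With the replicate block, 138 probe sets were lower and 79 higher, and it ended 0 of these 34 calls. Among the 123 named results, it changed no other call than those given with a block value, and it ended 5 of the 60 lower genes. All 14 arrays in 1 fit gave 178 lower and 79 higher, with 23 ciliary genes lower, and array weights gave 118 and 51. Leaving out 1 array at a time gave 42 to 74 lower and 16 to 48 higher probe sets, and 8 to 14 lower and 1 to 2 higher ciliary genes. It ended 7 of the 34 calls in at least 1 such fit, but many of the 34 were named because they held in all 8. Of all genes called, 31 of 60 lower and 9 of 23 higher ones held in all 8. Quantile normalization ended the calls of bbs-8 (0.0615) and of the dimmer daf-19 probe set (0.0658). The Gapdh 3′ minus 5′ covariate, chosen after seeing the data and itself unequal between the groups, gave 29 lower and 6 higher probe sets and 5 and 0 ciliary genes. It ended 16 of the 34 calls, with log2 differences at 0.76 to 1.29 times those without it. The ciliary median stayed between -0.23 and -0.17 throughout. Signals in the lowest 25% of an array limit what can be said of size. A planned count of X-box matches at other mismatch limits was not run, because no promoter sequences were used here.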

Other observations

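Values outside the lists were chosen after they were seen. Of 29 measured subunit genes of the DEG/ENaC channels, which include the touch channels of C. elegans, del-4 was lower at L1 (-1.29, adjusted p = 0.0092 by limma), as was egas-1 (-1.16, 0.0129), whose call ended without control 2 or 4. The median of the 29 was 0.01, and 2 were lower and 0 higher, where 0.351% and 0.134% of all genes were. This family was picked after its values were seen, so the count is not evidence about the family. The detoxification gene fmo-2, for a flavin-containing monooxygenase, was higher with the replicate block (2.74; 0.0677, block 0.0148), as were the acyl-CoA synthetase gene acs-2 (1.41; 0.108, block 0.0293), T22F3.11 (3.59; 0.105, block 0.0312) and C35C5.8 (1.75; 0.127, block 0.0183).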
